A study of Mus musculus with 2 samples.

Results

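Platelet-derived growth factor (PDGF) signalling was described here through 4 genes, the ligands Pdgfa and Pdgfb and the receptors Pdgfra and Pdgfrb, out of 22401 features counted in single cells of the embryonic mouse heart. The genes were chosen by name with their levels in these cells already known, so their pattern is given as a description with no test. All 4 were measured in both libraries. Whole hearts of E11.5 embryos gave 1 library per genotype. The control genotype was Hand2fx/+R26RmTmG/wt, with 1 floxed allele of Hand2 (a transcription factor of the basic helix-loop-helix family) and no Cre. The second genotype, called H2CKO, was Nfatc1Cre/wtHand2fx/fxR26RmTmG/wt, with both alleles floxed and Cre made under Nfatc1, a gene of the endocardium (the inner endothelial lining of the heart). Both carried 1 copy of the mTmG reporter, which switches from Tomato to GFP once Cre has acted, and Cre itself was carried by H2CKO alone, so that Cre and loss of Hand2 cannot be told apart. The labels do not give the number of embryos per library. With 1 library per genotype, every difference below is between these libraries, has no replicate check, and carries an interval for counting error only.

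PDGF chains are secreted as dimers and signal through receptor tyrosine kinases on neighbouring cells. PDGF-A acts through PDGFR-alpha, which marks mesenchymal and fibroblast precursors, whereas PDGF-B acts mainly through PDGFR-beta and is best known as the endothelial signal that recruits pericytes and vascular smooth muscle. In the developing heart both receptors are known from the epicardium, its mesenchymal descendants and the endocardial cushions, which form valves. The question put to these data was where each gene was counted and how its level differed between the genotypes, with Pdgfrb in endothelial cells at the centre.

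Pdgfa (ENSMUSG00000025856) lies on chromosome 5 at 138976014 to 138997370 on the minus strand and Pdgfra (ENSMUSG00000029231) on the same chromosome at 75152292 to 75198215 on the plus strand (GRCm38). Pdgfb (ENSMUSG00000000489) lies on chromosome 15 at 79995874 to 80014977 on the minus strand, and Pdgfrb (ENSMUSG00000024620) on chromosome 18 at 61045150 to 61085061 on the plus strand. The annotation places other genes inside the bounds of Pdgfa, Pdgfb and Pdgfra (such as 6330403L08Rik in Pdgfa), and UMIs in such overlaps may be uncertain. Pdgfrb overlapped no annotated gene. Counts are of transcript 3′ ends, so levels are compared between populations of cells for 1 gene, not between genes.

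Filtering left 8792 cells in the control library and 11582 in the other, the median cell holding 16224 and 13455 UMIs. The libraries shared 57 barcodes, of which 28 were kept in both. Of 21 clusters, 18 took a class name from marker lists and 3 stayed unnamed. Endothelial-like cells formed 2 clusters, here called Klf2-low (120 control and 487 H2CKO cells) and Klf2-high (256 and 267 cells) after the flow-responsive factor Klf2, which was at 523 and 419 CPM (UMIs of the gene per 1000000 UMIs of that population) in the first and 2102 and 2304 CPM in the second. Mesenchymal-like cells held clusters with Msx1 (921 and 655 cells), Meox1 (676 and 421) and Rgs5 (41 and 74) among their leading genes, and epicardial-like cells held clusters with Upk3b (687 and 227) and Tcf21 (141 and 103). All 12 endothelial markers reached 20 CPM in Klf2-low cells of both libraries, and 11 and 10 of them in Klf2-high cells. Hand2, measured first as the targeted gene, was at 172 and 13.0 CPM in Klf2-low cells, 255 and 7.77 in Klf2-high cells, 176 and 14.5 in the Msx1 cluster, 185 and 91.6 in the Meox1 cluster, 124 and 110.0 in epicardial-like cells, and 73.7 and 72.1 in cardiomyocyte-like cells (control first, as throughout). A 3′ count can still register a transcript that has lost its floxed part, so these values do not measure the deletion itself.

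The ligands were counted in different cells. Pdgfa was a transcript of muscle and epicardium. In the control, cardiomyocyte-like cells held 52.5% (95% interval 51.2 to 53.9, Clopper-Pearson) of its 5551 UMIs, and in H2CKO 69.3% (68.0 to 70.5) of 5497. Its highest level in a cluster of over 50 cells in both libraries was in an unnamed cluster led by Rspo3, Masp1 and Sema3c, at 102 CPM (95% Poisson interval 95.4 to 109) in control cells, against 85.9 CPM (79.7 to 92.4) in those of H2CKO. Next came a group with overlapping control intervals: a second unnamed cluster led by Tnni2 and Ckm at 73.9 CPM, the Gal cluster at 72.5 CPM, the cardiomyocyte-like Tnni2 cluster at 68.2 CPM, the Nppa cluster at 66.5 CPM and the epicardial-like Upk3b cluster at 64.0 CPM. Below them, the cardiomyocyte-like Myl1 cluster stood at 40.4 CPM, the Tcf21 cluster at 15.6 CPM, Klf2-high cells at 10.8 CPM, mesenchymal-like cells at 7.57 CPM and Klf2-low cells at 7.24 CPM. The cardiomyocyte-like Stard10 cluster is left out of this order because it had only 3 H2CKO cells. It held 211 Pdgfa UMIs in 104 control cells and 10 in those 3. Erythroid-like cells, taken as a type that should lack all 4 genes, stood at 0.766 and 0.905 CPM.

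Pdgfb was a transcript of endothelium. The 2 endothelial clusters held 85.9% (81.6 to 89.5) of its 326 control UMIs and 88.1% (84.2 to 91.3) of its 344 H2CKO UMIs. White blood cell-like cells added 17 and 14 UMIs, or 13.4 and 7.47 CPM. In cardiomyocyte-like cells it had 6 and 12 UMIs in 2162 and 3018 cells, and in mesenchymal-like cells 11 and 1 UMIs. Those control levels, 0.139 and 0.484 CPM, stand beside 0.0982 CPM in erythroid-like cells.

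The receptors shared the mesenchymal and epicardial cells, and only Pdgfrb was also well represented in the control Klf2-low endothelium. Mesenchymal-like cells held 75.9% of the 5697 control UMIs of Pdgfra and 66.8% of the 1344 of Pdgfrb. Epicardial-like cells held 18.0% and 16.5%. For Pdgfra the control order was the Meox1 cluster at 223 CPM (214 to 232) and the Tcf21 cluster at 219.9 CPM (200.4 to 241), whose intervals overlapped, then the Msx1 cluster at 167 CPM (160.3 to 175), the Upk3b cluster at 49.7 CPM (45.7 to 54.0) and Klf2-high cells at 27.7 CPM (22.9 to 33.2). For Pdgfrb, Klf2-low cells at 56.3 CPM (46.3 to 68.0) and the Tcf21 cluster at 46.7 CPM (38.0 to 56.9) overlapped at the top, followed by the Msx1 cluster at 40.05 CPM (36.6 to 43.7) and the Meox1 cluster at 38.0 CPM (34.3 to 42.1), which overlapped each other and the Tcf21 cluster. Klf2-high cells at 12.2 CPM and the Upk3b cluster at 10.97 CPM came last among these populations and overlapped. Both orders leave out the small cluster with the pericyte gene Rgs5 among its leading genes. It had 20 control Pdgfrb UMIs in 41 cells, 64.5 CPM with a wide interval, and 17 Pdgfra UMIs, 9 of them in 1 cell. In erythroid-like cells Pdgfra was at 1.04 CPM and Pdgfrb at 0.196 CPM in the control.

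**Figure D1:**
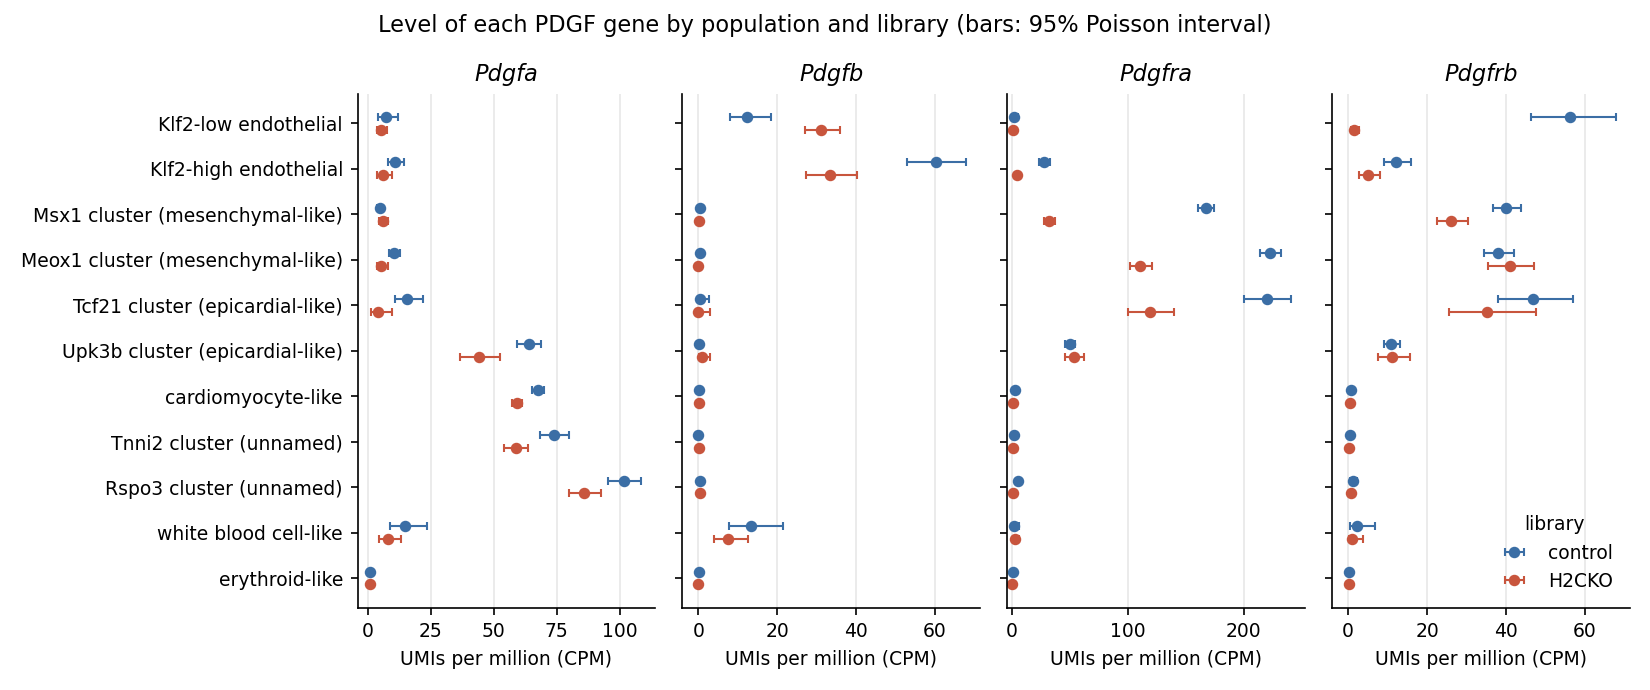
Level of Pdgfa, Pdgfb, Pdgfra and Pdgfrb in CPM (horizontal axes, scales differ between panels) in 11 populations of cells (vertical axis), control in blue and H2CKO in red, with bars for the 95% Poisson interval of 1 library. Pdgfrb in Klf2-low endothelial cells stands at 56.3 CPM in the control and at 1.43 CPM in H2CKO.

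Pdgfrb was at 56.3 CPM in Klf2-low endothelial cells of the control and close to nothing in those of H2CKO. There were 109 UMIs in 120 control cells, with a UMI in 50 of them, and 9 UMIs in 487 H2CKO cells, with a UMI in 8. Of the control cells, 24 had 1 UMI, 12 had 2 and 14 had 3 or more, with 9 in the highest cell. In H2CKO the highest cell had 2. Control cells with Pdgfrb were thus many, and no single cell carried the sum. The level in H2CKO was 1.43 CPM (0.654 to 2.71), which is 39.4-fold lower (20.004 to 88.4), and the log2 ratio of CPM plus 5 was −3.25 (−3.49 to −2.91).

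Counted as cells with a UMI, Pdgfrb was detected in 41.7% (32.7 to 51.0) of Klf2-low cells in the control library and in 1.64% (0.712 to 3.21) in the other, where the median cell held 13552 and 10729 UMIs. In erythroid-like cells, whose median depth was 18307 and 13228, the shares were 0.368% and 0.141%. With every cell thinned to 5000 UMIs (111 and 458 cells deep enough), the shares were 23.4% and 0.437%, and the log2 ratio was −3.46. The gap was thus also present at equal depth. Among 6334 genes with at least 20 CPM and 20 UMIs in the higher library, which are the genes compared throughout, 6 had a lower log2 ratio than Pdgfrb. In this population 8.51% of the compared genes were at least 2-fold lower in H2CKO and 1.44% at least 2-fold higher, on the log2 scale with 5 CPM added. The median compared gene was at −0.26, and relative to it Pdgfrb was at −3.00. The gene was chosen with this contrast known, so nothing is read from its rank.

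The control UMIs of Pdgfrb lay in cells with endocardial markers. All 109 fell in the 99 cells with a UMI of Npr3, a natriuretic peptide receptor of the endocardium, and 90 of them in the 70 cells with a UMI of Nfatc1. That is 62.4 CPM (51.2 to 75.3) with Npr3, against 0 UMIs in the 21 cells without, where up to 19.6 CPM is allowed. In H2CKO, 246 cells had a Npr3 UMI and held 8 Pdgfrb UMIs, or 2.13 CPM, and the 241 without held 1. The 99 control cells held 934 Npr3 UMIs and the 246 H2CKO cells 506. A Npr3 UMI therefore need not mark like cells in both libraries.

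The make-up of the Klf2-low cluster differed between the libraries. Clustering gave each cell neighbours from both libraries, which favours shared clusters. Npr3 itself was at 483 and 80.4 CPM. Cldn5, a tight-junction gene of vascular endothelium, was at 25.3 and 128 CPM, and was detected in 17 of 120 cells of the control and 293 of 487 of H2CKO. In cells without a Cldn5 UMI, Pdgfrb was at 63.9 CPM in 103 control cells and 3.30 CPM in 194 H2CKO cells. In cells with one, it was at 24.3 CPM (9 UMIs in 17 cells) and 0.479 CPM (2 UMIs in 293 cells). Pdgfrb was lower in H2CKO on both sides of this split, and the part of the remaining difference in make-up was not tested.

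Markers of mesenchymal and mural cells, the usual sites of Pdgfrb, were given beside it. The 12 mesenchymal markers summed to 796 and 219 CPM in Klf2-low cells, with 6 and 3 of them at 20 CPM or more, mostly Col3a1 (521 and 125 CPM) and Postn (129.7 and 18.9 CPM). The others at 20 CPM or more in the control were Twist1 (37.7 and 20.97 CPM), Col1a2 (36.7 and 10.01 CPM), the cushion factor Sox9 (28.9 and 3.50 CPM) and Tgfbi (27.4 and 27.01 CPM). Prrx1 was at 0 in the control, and Meox1, Papss2 and Col9a3 were at 1.03 to 2.07 CPM. The 9 mural markers summed to 100.3 and 93.1 CPM. They were led by Acta2 (48.1 and 55.3 CPM), Tagln (24.8 and 19.7 CPM) and Notch3 (12.9 and 7.15 CPM). Abcc9 was at 7.24 and 2.22 CPM and Cnn1 at 4.13 and 6.67 CPM. Myh11 was at 0 in both libraries, the pericyte gene Rgs5 had 3 and 5 UMIs, and Kcnj8 and Cspg4 had 1 to 5. Pdgfra, the receptor most widely found in mesenchymal-like cells, had 4 UMIs in each library (2.07 and 0.636 CPM). All 109 control UMIs of Pdgfrb lay in the 113 cells with a mesenchymal marker UMI, and the 7 cells without one held none, which allows up to 88.5 CPM. In H2CKO the 365 cells with such a UMI held 8 and the 122 without held 1. Of the control UMIs, 100 lay in the 92 cells with a mural marker UMI, and 9 in the 28 cells without, or 29.2 CPM (13.4 to 55.5). The 171 H2CKO cells without a mural marker UMI held 5, or 2.49 CPM (0.810 to 5.82). The 2 control cells with more mesenchymal than endothelial marker UMIs held no Pdgfrb UMI. The part of these markers in the difference was not tested beyond these splits.

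In Klf2-high endothelial cells Pdgfrb was also lower in H2CKO, by less. It had 52 UMIs in 256 control cells and 16 UMIs in 267 H2CKO cells, or 12.2 CPM (9.12 to 16.01) and 4.97 CPM (2.84 to 8.08). The log2 ratio was −0.79 (−1.23 to −0.30), and the level lay under the 20 CPM needed for the comparison across genes. Shares of cells with a UMI were 16.02% and 5.62%, or 7.05% and 3.39% after thinning. Here Npr3 did not separate the cells with Pdgfrb, which was at 9.11 CPM with and 15.5 CPM without a Npr3 UMI in the control. The 12 mesenchymal markers summed to 1250.1 and 505 CPM in this cluster, none of them at 0. The 9 mural markers summed to 262 and 134 CPM. Without cells that had more mesenchymal than endothelial marker UMIs, 37 and 13 Pdgfrb UMIs were left and the log2 ratio was −0.68. The part of these markers was not tested beyond this split. Both endothelial clusters together gave 26.0 and 2.63 CPM, a log2 ratio of −2.02.

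**Figure D2:**
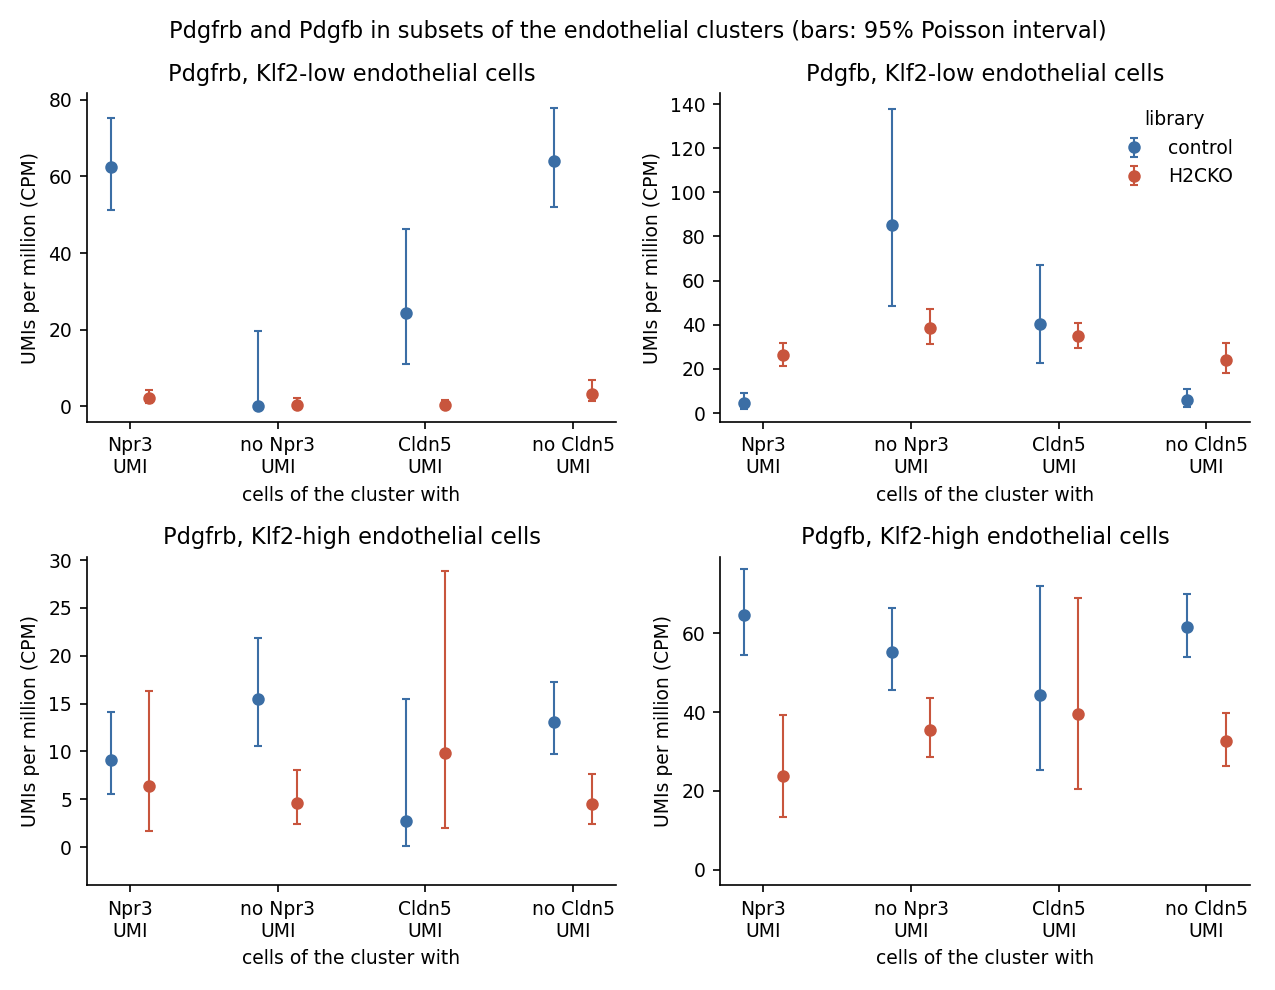
Pdgfrb (left) and Pdgfb (right) in CPM (vertical axes, scales differ) in cells of the Klf2-low (top) and Klf2-high (bottom) endothelial clusters with or without a UMI of Npr3 or of Cldn5 (horizontal axis), control in blue and H2CKO in red, bars for the 95% Poisson interval. Control Pdgfrb in Klf2-low cells is at 62.4 CPM with a Npr3 UMI and at 0 without.

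Pdgfra was lower in H2CKO in mesenchymal-like cells, which made up 18.6% of kept control cells and 9.93% of kept H2CKO cells. Pdgfra had 4325 UMIs in 1638 control cells and 755 UMIs in 1150 H2CKO cells. This was 190.3 CPM (185 to 196) and 63.6 CPM (59.2 to 68.3), 2.99-fold lower in H2CKO (2.77 to 3.23), with a log2 ratio of −1.51 (−1.61 to −1.40). The median compared gene of this class was at −0.24, and relative to it Pdgfra was at −1.27. Among 6540 genes compared, 12 had a lower ratio than Pdgfra, 3.41% were at least 2-fold lower and 0.489% at least 2-fold higher. The contrast was known when the gene was chosen, and these shares are given as background only. In these cells the 12 mesenchymal markers summed to 5044 and 2847 CPM, and the 9 measured erythroid markers, genes of another cell type, to 11836 and 54775 CPM. The erythroid sum was also higher in H2CKO in Klf2-low (23210.1 and 41591 CPM), Klf2-high (13481 and 54921 CPM), epicardial-like (11702 and 41559 CPM) and cardiomyocyte-like cells (15287 and 28302 CPM). The part of either list in the differences was not tested.

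Within the mesenchyme the Msx1 cluster, whose leading genes include the cartilage-type cushion genes Sox9, Hapln1 and Col9a3, differed most. There the 921 control cells held 2086 Pdgfra UMIs and the 655 H2CKO cells 213, or 167 and 32.2 CPM (28.0 to 36.8), with a log2 ratio of −2.21 (−2.39 to −2.03). Control cells of this cluster with 3 or more Pdgfra UMIs numbered 305, against 13 in H2CKO. The cells with none numbered 236 and 500. After thinning, 48.9% (45.5 to 52.2) of 884 control cells and 12.9% (10.3 to 15.8) of 614 H2CKO cells had a Pdgfra UMI. In the Meox1 cluster, whose leading genes include Postn and Tgfbi, the level was 223 CPM and 110.8 CPM (102 to 120.7), with a log2 ratio of −0.98 (−1.11 to −0.84) that stays short of 2-fold on this scale. Its thinned shares were 61.3% and 38.3%. The intervals of the log2 ratio in these clusters do not overlap.

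**Figure D3:**
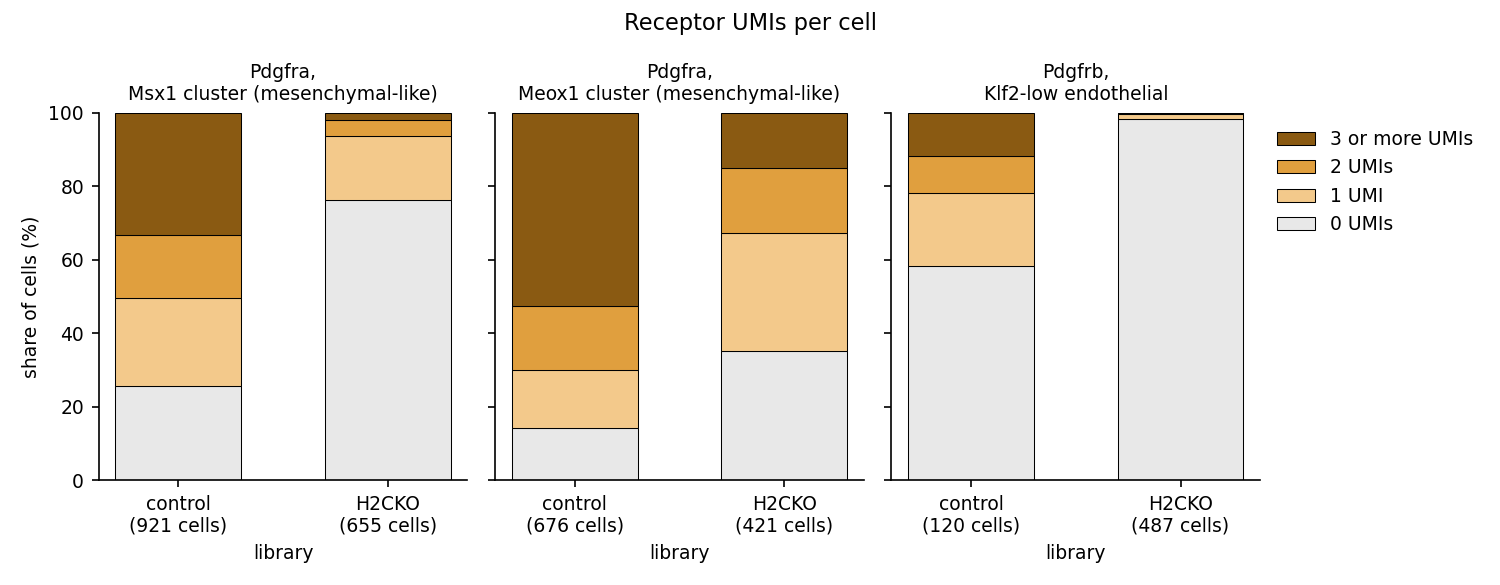
Share of cells (vertical axis, %) with 0, 1, 2 or at least 3 UMIs of a receptor in each library, for Pdgfra in the Msx1 and Meox1 clusters and Pdgfrb in Klf2-low endothelial cells. Cells without a Pdgfra UMI number 236 of 921 in the control and 500 of 655 in H2CKO in the Msx1 cluster, and cells without a Pdgfrb UMI number 70 of 120 and 479 of 487 in the endothelial panel.

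The sequence before the start of Pdgfra is shown because HAND2 belongs to a family of factors that bind E-boxes (CANNTG). Pdgfra was picked for this with its values known, and whether HAND2 acts on it was not tested. The 250 bases before its start in RefSeq (GRCm38.p6, plus strand, chr5:75152001-75152250) hold 1 E-box, in capitals. The motif was searched in the forms CANNTG on both strands, where a match on one is also a match on the other.

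Pdgfra: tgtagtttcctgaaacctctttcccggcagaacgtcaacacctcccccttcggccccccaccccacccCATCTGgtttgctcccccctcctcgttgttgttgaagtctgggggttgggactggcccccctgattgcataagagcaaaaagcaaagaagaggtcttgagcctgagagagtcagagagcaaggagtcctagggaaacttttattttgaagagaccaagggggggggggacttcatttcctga

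Such a match is common, since 66.2% of 32851 promoter windows of the same length hold at least 1, with a median of 1. It is a match of letters, and says nothing of binding. The windows before the 2 listed starts of Pdgfa held none. No window is given for Pdgfb or Pdgfrb.

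Outside the mesenchyme Pdgfra differed by cluster. In the epicardial-like Tcf21 cluster, led by a gene of cardiac fibroblast precursors, it was at 219.9 and 119 CPM, with 466 and 145 UMIs and a log2 ratio of −0.86 (−1.13 to −0.60). In the Upk3b cluster, led by a gene of the mesothelial surface, it was at 49.7 and 53.4 CPM, with 557 and 154 UMIs and a log2 ratio of 0.10 (−0.15 to 0.33). The class as a whole gave 76.8 and 72.9 CPM, a log2 ratio of −0.07 (−0.25 to 0.11). With doublets kept it had 1874 and 337 UMIs and a log2 ratio of −0.87, and doublets had been removed by a different rule in each library (10.7% and 4.604% of cells). The Tcf21 cluster made up 141 of 828 control cells and 103 of 330 H2CKO cells of the class, so the value of the whole class mixes these in different shares. For the epicardial-like class 4.73% of 6347 compared genes were at least 2-fold lower and 1.42% at least 2-fold higher. Pdgfra was not among them, and Pdgfrb, under 20 CPM, was not compared.

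Klf2-high endothelial cells of the control also held Pdgfra, with 118 UMIs in 256 cells against 13 in 267 H2CKO cells. The levels were 27.7 CPM (22.9 to 33.2) and 4.04 CPM (2.15 to 6.91), with a log2 ratio of −1.86 (−2.24 to −1.40), and 16 of 6576 genes compared had a lower one. Shares of cells with a UMI were 18.0% and 4.12%, or 7.47% and 2.12% after thinning. In this population 3.68% of the compared genes were at least 2-fold lower and 0.623% at least 2-fold higher. Of the 118 control UMIs, 61 lay in 26 cells that had more mesenchymal than endothelial marker UMIs, and 18 in 1 cell. Without those 26 control and 8 H2CKO cells, Pdgfra was at 14.8 CPM (57 UMIs) and 3.83 CPM (12 UMIs). The part of mesenchymal markers, whose sums in this cluster are given above, was not tested beyond this split.

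In mesenchymal-like cells Pdgfrb differed less than Pdgfra. It had 898 and 387 UMIs, or 39.5 CPM (37.0 to 42.2) and 32.6 CPM (29.4 to 36.0), with a log2 ratio of −0.24 (−0.40 to −0.09). Relative to the median compared gene this is −0.0043, so the direction rests on the scaling. The Msx1 cluster had 40.05 and 26.2 CPM, a log2 ratio of −0.53 (−0.75 to −0.32), and the Meox1 cluster 38.0 and 40.9 CPM, a log2 ratio of 0.09 (−0.13 to 0.32). In epicardial-like cells it was at 16.7 and 18.3 CPM, a log2 ratio of 0.10 (−0.20 to 0.41). The Tcf21 cluster had 46.7 and 35.3 CPM, and the Upk3b cluster 10.97 and 11.1 CPM, both with intervals of the ratio that include 0. Cells with both receptors were counted after thinning. In mesenchymal-like cells, 155 of 266 control cells with a Pdgfrb UMI also had Pdgfra (58.3%), against 52.4% of the cells without Pdgfrb. In H2CKO the counts were 46 of 160 (28.75%) and 21.2%. In Klf2-low cells none of the 26 thinned control cells with Pdgfrb had a Pdgfra UMI.

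**Figure D4:**
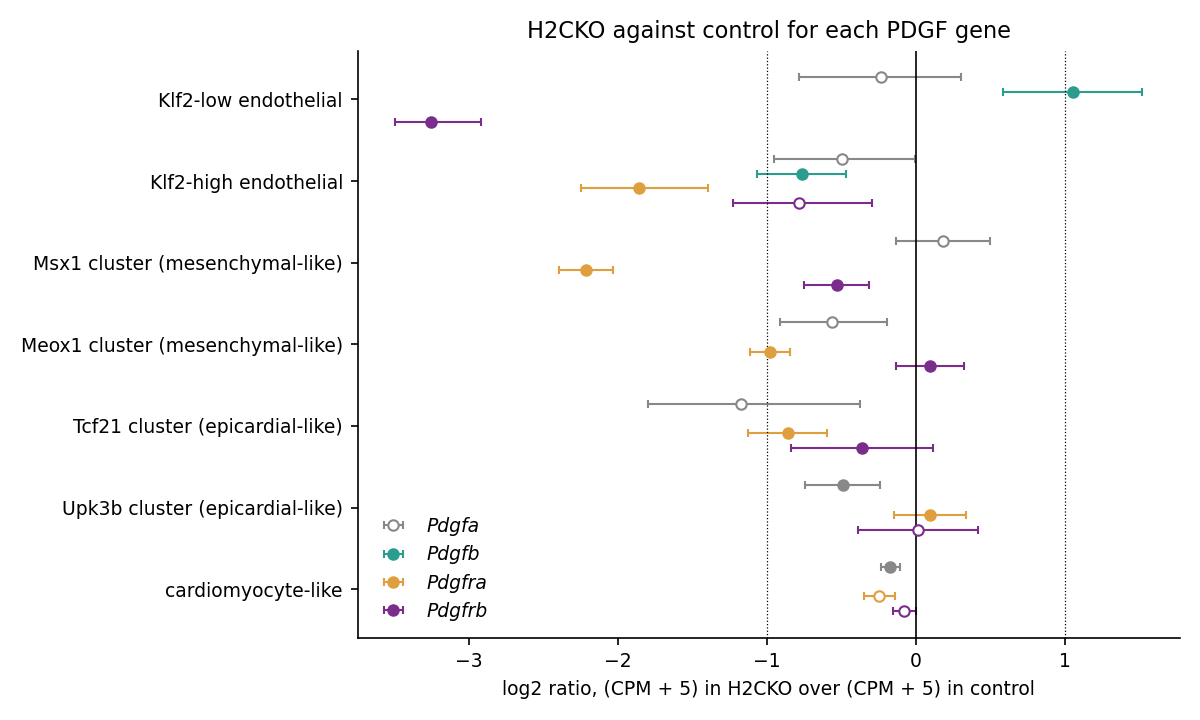
Log2 ratio of CPM plus 5 in H2CKO over the control (horizontal axis) for each gene in 7 populations (vertical axis), bars for the exact conditional 95% interval, dotted lines at 2-fold, open points where a gene is under 20 CPM or 20 UMIs in the higher library (genes under 20 UMIs in both are left out). Pdgfrb in Klf2-low cells lies at −3.25 and Pdgfra in the Msx1 cluster at −2.21.

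In cardiomyocyte-like cells, which held most of its UMIs, the ligand Pdgfa differed little between the libraries. They had 2917 and 3807 UMIs in 2162 and 3018 cells, or 67.5 CPM (65.0 to 70.0) and 59.3 CPM (57.4 to 61.2). The log2 ratio was −0.17 (−0.24 to −0.11), and −0.0082 relative to the median compared gene, which was at −0.16. In these cells 0.489% of 5522 compared genes were at least 2-fold lower and 0.272% at least 2-fold higher, and Pdgfa was not one. The Rspo3 cluster had 102 and 85.9 CPM, with intervals that do not overlap and a log2 ratio of −0.23 (−0.37 to −0.10), and the unnamed Tnni2 cluster 73.9 and 58.7 CPM. In epicardial-like cells Pdgfa was at 56.3 CPM (52.3 to 60.4) and 32.2 CPM (26.9 to 38.2), with a log2 ratio of −0.72 (−0.96 to −0.48). In these cells the 11 epicardial markers summed to 2924 and 2059 CPM and the 12 cardiomyocyte markers to 4150.4 and 9004 CPM, and their part in the difference was not tested. Within the class, the Upk3b cluster alone gave −0.49 (−0.75 to −0.24), and the Tcf21 cluster had 33 and 5 UMIs.

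The ligand Pdgfb pointed in opposite directions in the 2 endothelial clusters. In Klf2-high cells it had 256 UMIs in 256 control cells and 107 in 267 H2CKO cells, or 60.1 CPM (53.0 to 67.9) and 33.3 CPM (27.3 to 40.2), with a log2 ratio of −0.77 (−1.06 to −0.47). One control cell held 37 of the 256 UMIs. In Klf2-low cells it had 24 UMIs in 120 control cells and 196 in 487 H2CKO cells, or 12.4 CPM (7.95 to 18.5) and 31.1 CPM (26.9 to 35.8), with a log2 ratio of 1.05 (0.58 to 1.52). With each cell named by its own markers in place of clusters, it had 50 and 182 UMIs and a log2 ratio of 0.43, short of 2-fold. By cluster, the levels were far apart in the control and near each other in H2CKO, where their intervals overlap. With both pooled, Pdgfb was at 45.2 and 31.9 CPM, a log2 ratio of −0.45 (−0.66 to −0.23).

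In control Klf2-low cells the ligand was higher in cells without a Npr3 UMI, where its receptor was at 0. Control cells with a Npr3 UMI had 8 Pdgfb UMIs in 99 cells, or 4.58 CPM (1.98 to 9.02), and the 21 control cells without had 16, or 85.0 CPM (48.6 to 138). In H2CKO the same subsets were at 26.1 CPM (21.2 to 31.8) and 38.6 CPM (31.3 to 47.0), intervals that overlap. Among cells with Npr3, Pdgfb was higher in H2CKO, and 5.05% (1.66 to 11.4) and 27.2% (21.8 to 33.3) of cells had a UMI. These cells held 934 and 506 Npr3 UMIs, so they need not be like cells in both libraries. Among cells without, the lower H2CKO level rests on the 16 UMIs of 7 control cells, and the shares of cells with a UMI, 33.3% (14.6 to 57.0) and 25.3% (19.9 to 31.3), overlap. Cells with a Cldn5 UMI were at 40.5 CPM (15 UMIs in 17 cells) and 34.7 CPM (145 UMIs in 293 cells), intervals that overlap, and cells without at 5.75 and 24.1 CPM. The Cldn5 and Npr3 shares of the cluster differ between the libraries as given above, and their part in the cluster-wide value was not tested.

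H2CKO cells were also split by a GFP UMI, since the reporter makes GFP once Cre has acted. A shallow cell can miss the transcript, and free RNA can add it. In the Msx1 cluster, 353 cells had a GFP UMI and 302 had none. Pdgfra was at 29.6 CPM (24.3 to 35.8) in the first and 35.3 CPM (28.9 to 42.7) in the second, and Pdgfrb at 26.0 and 26.3 CPM. Intervals overlapped for both receptors, and both groups were far under the 167 CPM of Pdgfra in the control. In the Meox1 cluster, with 54 GFP-positive and 367 other cells, Pdgfra was at 125 and 108 CPM and Pdgfrb at 36.0 and 41.8 CPM. Over all mesenchymal-like cells Pdgfra was at 45.2 CPM (39.1 to 51.9) in 410 cells with a GFP UMI and 74.4 CPM (68.3 to 80.8) in 740 without, intervals that do not overlap, with the clusters in different shares as given. In Klf2-low cells, 297 had a GFP UMI and held 2 Pdgfrb UMIs, and the 190 without held 7, or 0.482 and 3.27 CPM with overlapping intervals. Their Pdgfb was at 28.7 and 35.9 CPM. In Klf2-high cells Pdgfb was at 35.8 CPM (29.3 to 43.3) in 234 cells with a GFP UMI and had 0 UMIs in the 33 without, which allows up to 16.1 CPM, at median depths of 9868.5 and 6534 UMIs. The control, with no Cre by its label, also held GFP, at 7.85 CPM over all kept cells and 17.8 CPM in its Msx1 cluster, against 1338 CPM in that cluster in H2CKO.

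Other genes of the pathway were counted from lists. Pdgfc, a ligand of PDGFR-alpha, was at 39.3 and 21.3 CPM in the Meox1 cluster and 10.1 and 4.69 CPM in the Msx1 cluster. Pdgfd, a ligand of PDGFR-beta, was highest in epicardial-like cells, at 10.4 and 8.05 CPM. Pdgfrl, a receptor-like gene without a kinase, was at 30.1 and 23.3 CPM in Klf2-high cells and at 28.8 and 24.4 CPM in mesenchymal-like cells. Of the 5 classes, Pdgfrl met the minimum level in Klf2-high and mesenchymal-like cells, Pdgfc in mesenchymal-like cells only, and Pdgfd in none. Where compared, none was past 2-fold. Over all compared genes, 3.68% were at least 2-fold lower in Klf2-high and 3.41% in mesenchymal-like cells, so this is no result about the list.

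Of 9 genes that process or bind PDGF chains, 6 were compared in Klf2-low cells, with 3 at least 2-fold lower, beside 8.51% of all compared genes, and none higher. These were Lrp1, an endocytic receptor that binds PDGFR-beta (20.2 and 3.34 CPM), and the proprotein convertases Pcsk5 (28.4 and 6.51 CPM) and Furin (50.1 and 14.5 CPM). Sparc, a matrix protein that binds PDGF-B, was at 486 and 836 CPM, and Nrp1 at 309.6 and 176 CPM, both short of 2-fold. The median log2 ratio of the 6 was −1.15, beside −0.26 over all compared genes. In mesenchymal-like cells, where the share over all compared genes was 3.41%, 1 of 6 was at least 2-fold lower, Furin at 85.1 and 35.4 CPM, and Sparc was at 1491 and 1460.4 CPM. In Klf2-high cells (3.68% of all compared genes lower) 1 of 6 passed, Lrp1 at 20.9 and 3.42 CPM, and in epicardial-like cells (4.73%) 2 of 6, Pcsk5 at 249.6 and 79.3 CPM and Nrp1 at 214 and 91.2 CPM.

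Of 17 genes that act below the receptors, 15 were compared in Klf2-low cells, with 3 at least 2-fold lower, again beside 8.51%, and none higher. These were the adaptor Gab1 (55.3 and 9.69 CPM), the exchange factor Sos1 (32.0 and 12.7 CPM) and the adaptor Shc1 (59.9 and 27.3 CPM). The adaptor Grb2 was at 82.7 and 81.04 CPM and the phosphatase Ptpn11 at 70.3 and 44.0 CPM. In mesenchymal-like cells 1 of 15 passed, Sos1 at 30.7 and 11.8 CPM, with a median log2 ratio of −0.59 beside −0.24 over all compared genes. In epicardial-like cells 1 of 14 passed, again Sos1, and in Klf2-high and cardiomyocyte-like cells none of 14 and 10 did. Beside shares of 3.41% in mesenchymal-like and 4.73% in epicardial-like cells over all compared genes, 1 gene is no result about the list. Those shares were 3.68% in Klf2-high and 0.489% in cardiomyocyte-like cells, so the absence of a called gene there is no result either.

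A list of 14 genes of fibroblasts and epicardium-derived cells was read beside Pdgfra. In mesenchymal-like cells 4 of the 10 compared were at least 2-fold lower, beside 3.41% of all compared genes: the collagens Col1a1 (333 and 136 CPM) and Col3a1 (716 and 338 CPM), the collagen receptor Ddr2 (22.5 and 7.67 CPM) and, named after its value was seen, the factor Twist1 (1049.6 and 517 CPM). None was higher, and the median of the 10 was −0.68. In Klf2-high cells 5 of 8 passed, beside 3.68% of all compared genes, among them Col1a1 at 44.6 and 6.22 CPM, with a median of −1.29 beside −0.24. In Klf2-low cells, where 8.51% of all compared genes were lower, 3 of 4 were (Col3a1, Col1a2 and the matrix gene Fn1), and in epicardial-like cells, beside 4.73%, 3 of 12 (Col3a1, Tbx18 and Fn1). Of 12 mural genes, none of the 6 compared passed in mesenchymal-like cells, and in epicardial-like cells 2 of 5 were at least 2-fold higher in H2CKO, beside 1.42% of all compared genes, the contractile genes Acta2 (167 and 417 CPM) and Cnn1 (17.1 and 51.5 CPM). Beside the cardiomyocyte marker sums of these cells given above, control cardiomyocyte-like cells held Acta2 at 2317 CPM and Cnn1 at 354 CPM. The part of cardiomyocyte RNA in these differences was not tested. In Klf2-high cells 1 of 4 mural genes was lower, Tagln at 119.8 and 40.7 CPM, which beside 3.68% of all compared genes is no result about the list. None of 4 mural genes passed in Klf2-low cells. In cardiomyocyte-like cells none of 4 processing, 7 mural or 2 fibroblast genes did, which beside 0.489% of all compared genes lower and 0.272% higher is no result about the lists.

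Genes with a like pattern over 40 sums of cluster and library were found by Pearson's r of log2 of CPM plus 5, among 9109 features. The sums share 2 libraries and differ in depth, so r is a description. Closest to Pdgfa were the desmosome gene Dsp (r = 0.953), the neuregulin receptor Erbb4 (0.952) and Sv2a (0.951). Closest to Pdgfb were the endothelial genes Adgrl4 (0.974), Apold1 (0.962) and Gimap6 (0.957). Pdgfra was nearest to the guidance receptor Robo2 (0.964), Prss35 (0.958) and Garnl3 (0.957), and Pdgfrb to the matrix protease Mmp2 (0.913), Postn (0.909) and Tpst1 (0.908). The receptors were alike with r = 0.851, whereas the 2 ligands had r = −0.19.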

How the data were processed

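The authors deposited 1 table of raw UMI counts per library, with Ensembl gene identifiers, plus embedding coordinates per cell, a score without a unit that served only to mark a subset of cells. The submitters' processing notes name Cell Ranger 5.0.1, Seurat 4 and GRCm38.p6, without their roles. Of 22401 features, 22285 matched a symbol. The members and lists were chosen with earlier results of these data known.

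Cells were kept from 500 genes up and with no more than 10% mitochondrial UMIs (of 14114 control and 13885 H2CKO barcodes, 195825720 and 201477256 UMIs). Scrublet (scanpy 1.11.5) removed 1049 control cells at its own threshold. It marked 0 in H2CKO, where the highest 5% of scores were taken (559 left out at this step). Clusters came from 2000 variable genes, without Hand2, the reporters, haemoglobin, mitochondrial and sex-linked genes but with the PDGF genes. They used 30 components and Leiden at resolution 1 (leidenalg 0.10.2), and were named from 13 marker lists. Genes were scaled within each library, and each cell was joined to 15 neighbours from each library. This favours clusters shared by both libraries, also where their cells differ. Endothelial-like clusters were split at 1000 CPM of Klf2. UMIs were summed per population and library, and the log2 ratio took CPM plus 5. Intervals are 95%: Poisson, Clopper-Pearson and exact conditional (scipy 1.17.1). No p-value was computed. The ratio script was tested on simulated data. Named genes are the 4 members, for each the 3 features of highest r, and per list the 3 largest ratios in the class described with up to 2 that act directly with a PDGF chain or receptor. Marker genes that name or split populations (such as Npr3, Cldn5 and Sox9) and Twist1 lie outside this rule and were chosen with their values known.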

Additional observations from a re-analysis of the deposited data

Results flagged for a closer look

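Pdgfb had log2 ratios on opposite sides of 0 in the endothelial clusters, 1.05 in Klf2-low cells and −0.77 in Klf2-high cells, and both counting intervals leave out 0. With 1 library per genotype the difference between the clusters was not tested. The Klf2-low value rests on 24 control UMIs in 12 cells, and the cluster's shares of cells with Npr3 and Cldn5 differ between the libraries.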

How the results depend on the processing

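Pdgfrb in Klf2-low cells kept its sign and stayed past 2-fold in all 14 alternatives, from −4.56 with 1 CPM added to −2.02 with both endothelial clusters pooled. It was −2.81 in the deposited embedding's cells, −2.71 with each cell named by its own markers, and −2.78 with the trend on gene span taken off. That trend, the Msx1 cluster alone, and cells with a Npr3 or Nfatc1 UMI were alternatives chosen after seeing the data. In Klf2-high cells it was lower in all 14, from −0.38 with the span trend taken off and −0.55 centred on the median compared gene to −1.29 with cells named by their own markers and −2.02 with the clusters pooled. Not all alternatives are separate checks. Centring, 1 CPM added and the span trend rescale the same UMIs for every gene. The 109 and 9 Klf2-low UMIs also stayed the same at resolution 0.5 and with clustering without PDGF genes. Leaving out cells with more mesenchymal markers, or keeping cells with a Npr3 or Nfatc1 UMI, did not change them either. The pooled value covers both clusters and is counted in both sets.

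Pdgfra in mesenchymal-like cells stayed past 2-fold in all 11 alternatives: −1.27 centred on the median compared gene, −1.65 in the embedding's cells, −1.39 with cells named by their own markers, −1.09 without the span trend, and −2.21 in the Msx1 cluster alone. Pdgfrb there was −0.0043 centred, −0.46 in the embedding's cells, 0.17 without the span trend and −0.53 in the Msx1 cluster alone. In epicardial-like cells Pdgfrb was −0.33 with doublets kept and 0.51 without the span trend. Pdgfra there was 0.13 centred, 0.16 from 1500 genes up and with no more than 5% mitochondrial UMIs, −0.31 in the embedding's cells, −0.87 with doublets kept and 0.33 without the span trend, so neither receptor has a settled direction in that class.

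Pdgfa in cardiomyocyte-like cells was −0.0082 centred, −0.34 under the stricter cell filter and −0.070 without the span trend. The stricter filter left 2099 of 2917 control UMIs but 316 of 3807 H2CKO UMIs, so it acted unequally on the libraries. Pdgfb in Klf2-low cells was 1.58 after thinning (4 and 72 UMIs), 0.43 with cells named by their own markers, 1.67 in cells with a Npr3 or Nfatc1 UMI, and −0.45, the opposite sign, with both clusters pooled. Clustering without PDGF and pathway genes left all 8 values inside their intervals. The causes were not tested. No paired analysis was possible because each group holds 1 library. Counting intervals cover counting error only, and 120 control cells limit every Klf2-low value.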

Other observations

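The small Rgs5 cluster, with Eln, Mgp and Fbln5 among its leading genes, held 3 of the members at low counts. Pdgfrb had 20 UMIs in 41 control cells and 18 in 74 H2CKO cells, or 64.5 and 39.0 CPM, with a log2 ratio of −0.66 (−1.55 to 0.24). Pdgfra had 17 and 11 UMIs, of which 9 control UMIs lay in 1 cell. Pdgfa had 9 and 28 UMIs, or 29.0 and 60.6 CPM, with a log2 ratio of 0.95 (−0.06 to 1.99). Pdgfb had none in either library.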
